A study of Mus musculus with 12 samples.

Results

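*Csf1*, *Csf2* and *Tnfsf11* encode M-CSF, GM-CSF and RANKL, secreted or membrane-bound ligands that act on myeloid and stromal cells. They are 3 of the 48709 gene names in the count table and were taken from it by symbol. *Csf1* was selected on these values themselves, for a higher level in miR-155KI than in WT cells of the NK1.1- pool that the NK1.1+ pool did not show, so its values are a description without a test. *Csf2* and *Tnfsf11* were added as ligands that act on the same kinds of cell. That choice was made with earlier results of these data known, so their p-values are not those of genes picked blind to the data.

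RNA was sequenced from *i*NKT cells sorted from the thymus of 7-week-old C57BL/6J mice, in 12 libraries. The 4 groups, each of 3 libraries, were the NK1.1- pool and the NK1.1+ pool of miR-155KI mice and the same pools of WT littermates. The miR-155KI mice carried a miR-155 knock-in allele at Rosa26 on both chromosomes together with a Cre transgene driven by the Cd4 promoter, which acts throughout the T cell lineage and not only in *i*NKT cells. The mice called WT carried the knock-in allele as well but no CD4Cre, so Cre itself was present in the miR-155KI mice only. The thymocytes were depleted of CD8+ cells and sorted by a CD1d tetramer and by staining for TCRβ, CD44 and NK1.1. The study's methods speak of pooled replicates, but the tables hold 3 separate columns for each group, and neither the labels nor the methods say which mice stand behind a library. The p-values below therefore measure the spread between libraries, part of which may be technical.

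*i*NKT cells are T cells with a semi-invariant receptor for lipids on CD1d. M-CSF binds the receptor Csf1r and keeps macrophages and their precursors alive, while GM-CSF binds a receptor of an alpha chain, Csf2ra, and a beta chain, Csf2rb, on granulocytes, macrophages and dendritic cells. RANKL is a TNF family ligand whose receptor is RANK (Tnfrsf11a) and whose soluble decoy receptor is osteoprotegerin (Tnfrsf11b). RANKL drives osteoclast formation in bone together with M-CSF, and in the thymus RANKL made by T lineage cells helps medullary epithelial cells that express Aire to mature.

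Library depth was 12819476 to 20518257 counts. *Mir155hg*, the host transcript of miR-155, lay between 95.2 and 144 CPM in the 6 miR-155KI libraries and between 9.65 and 13.7 CPM in the 6 WT libraries, so the genotype labels matched this transcript. *Klrb1c*, which encodes NK1.1, lay between 358 and 774 CPM in the NK1.1+ libraries and between 36.7 and 79.9 CPM in the NK1.1- libraries. *Xist*, made from the inactive X chromosome of females, was at 135 to 237 CPM in WT replicates 2 and 3 and at 8.19 to 35.0 CPM in WT replicate 1 and all miR-155KI libraries. *Ddx3y*, on the Y chromosome, ran the other way (3.29 to 6.92 CPM against 52.5 to 76.6 CPM), so genotype and these transcripts moved together except in WT replicate 1. Here and below CPM is the usual count relative to library size, with library sizes scaled by TMM over all 12 libraries.

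In the GRCm38 build all 3 ligand genes lie on the minus strand. *Csf1* (ENSMUSG00000014599) is at chr3:107741048-107760469 with 5281 bases of annotated exon, *Csf2* (ENSMUSG00000018916) at chr11:54247271-54249667 with 800 bases, and *Tnfsf11* (ENSMUSG00000022015) at chr14:78277445-78308043 with 2236 bases. Mature miR-155-5p (chr16:84714143-84714165, plus strand, GRCm38.p6) is shown because its level is what the mice were made to change, with the seed, bases 2 to 8, in capitals. The sequence is from RefSeq.
mmu-miR-155-5p: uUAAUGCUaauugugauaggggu

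No annotated 3′ UTR of the 3 ligands held a match of 7 or 8 bases to this seed. The 3′ UTRs searched were those of GENCODE transcripts, 2111 bases in the longest *Csf1* transcripts, 317 bases in *Csf2* and 1131 bases in *Tnfsf11*. The *Csf1* 3′ UTR held 1 match to the 6-base core GCATTA, at chr3:107741230-107741235 on the minus strand, and those of *Csf2* and *Tnfsf11* held 0. It is printed with the core in capitals and the bases around it, because it is the only match of any length searched in the 3 genes. A core match of this length is a description of letters and no sign of binding.
Csf1 3′ UTR: ccgcccctgtgtGCATTAggaacc

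The promoters of the ligands are printed because *Csf1* and *Tnfsf11* moved in the same direction between the groups. Each window runs from 250 bases before to 50 bases after the RefSeq start site (GRCm38.p6, minus strand, written 5′ to 3′ along the gene), and the capitals mark letters that match a searched motif on either strand. The windows are chr3:107760420-107760719 for *Csf1*, chr14:78307994-78308293 for *Tnfsf11* and chr11:54249850-54250149 for *Csf2*. The start that RefSeq gives for *Csf2* lies 232 bases upstream of the GENCODE start of that gene, so its window misses the bases next to the GENCODE start.
Csf1 promoter: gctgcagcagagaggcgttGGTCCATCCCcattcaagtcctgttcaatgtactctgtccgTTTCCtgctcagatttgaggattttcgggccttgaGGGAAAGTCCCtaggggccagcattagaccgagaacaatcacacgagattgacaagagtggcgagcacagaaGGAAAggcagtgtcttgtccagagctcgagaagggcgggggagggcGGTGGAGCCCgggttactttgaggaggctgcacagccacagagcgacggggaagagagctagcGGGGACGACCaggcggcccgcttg
Tnfsf11 promoter: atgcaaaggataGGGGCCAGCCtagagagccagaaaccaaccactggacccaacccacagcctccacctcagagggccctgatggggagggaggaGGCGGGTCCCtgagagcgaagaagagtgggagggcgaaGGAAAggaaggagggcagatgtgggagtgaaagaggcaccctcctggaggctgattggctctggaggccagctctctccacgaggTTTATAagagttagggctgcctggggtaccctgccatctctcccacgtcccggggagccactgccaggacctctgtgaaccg
Csf2 promoter: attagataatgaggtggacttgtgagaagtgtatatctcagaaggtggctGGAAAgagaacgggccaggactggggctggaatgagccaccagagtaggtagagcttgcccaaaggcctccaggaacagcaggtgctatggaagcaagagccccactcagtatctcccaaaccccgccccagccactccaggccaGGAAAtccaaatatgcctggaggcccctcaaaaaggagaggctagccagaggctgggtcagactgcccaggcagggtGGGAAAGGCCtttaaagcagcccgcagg

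The motifs searched on both strands were GGAAA (the NFAT core), the NF-kB consensus of 3 G and 2 C with any 5 bases between them, TGANTCA (AP-1), TGTGGT (RUNX) and TATAAA (the core promoter letters bound by TBP). The *Csf1* window held 3 matches to the NFAT core and 5 to the NF-kB letters, among which a match on each strand overlap each other and an NFAT core match. The *Tnfsf11* window held 1 NFAT core match, 2 NF-kB matches and 1 TBP match that starts at -32 on the opposite strand. The *Csf2* window held 3 NFAT core matches and 1 NF-kB match, at 22, which overlaps the NFAT core match at 23. No window held the AP-1 or the RUNX letters. These letters are common, since 61.3% of 32851 mouse promoter windows of the same length held the NFAT core, 50.8% the NF-kB letters, 16.8% the RUNX letters, 13.6% the TBP letters and 7.81% the AP-1 letters, so the NFAT and NF-kB matches that all 3 ligands share are matches that most windows hold.

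*Csf1* was highest in miR-155KI NK1.1- cells. The 3 libraries of that group measured 163, 116 and 171 CPM for replicates 1 to 3, a mean of 149.9 ± 29.95 CPM (SD, n = 3). WT NK1.1- cells measured 45.5, 44.8 and 51.2 CPM, a mean of 47.2 ± 3.49 CPM (SD, n = 3). Every miR-155KI library lay above every WT library of this pool, as was the case for 13.2% of the genes tested, and replicate 2 was the lowest of the miR-155KI libraries.

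*Csf1* was low in the NK1.1+ pool of both genotypes. WT NK1.1+ cells measured 13.3, 10.9 and 11.2 CPM (11.8 ± 1.33, SD, n = 3), and miR-155KI NK1.1+ cells measured 11.0, 9.89 and 7.76 CPM (9.55 ± 1.65, SD, n = 3). From highest to lowest, the groups were therefore the NK1.1- pool of miR-155KI mice, that of WT mice and then the NK1.1+ pools of WT and of miR-155KI mice. Only the NK1.1+ pools overlapped with their neighbour in this order.

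**Figure D1:**
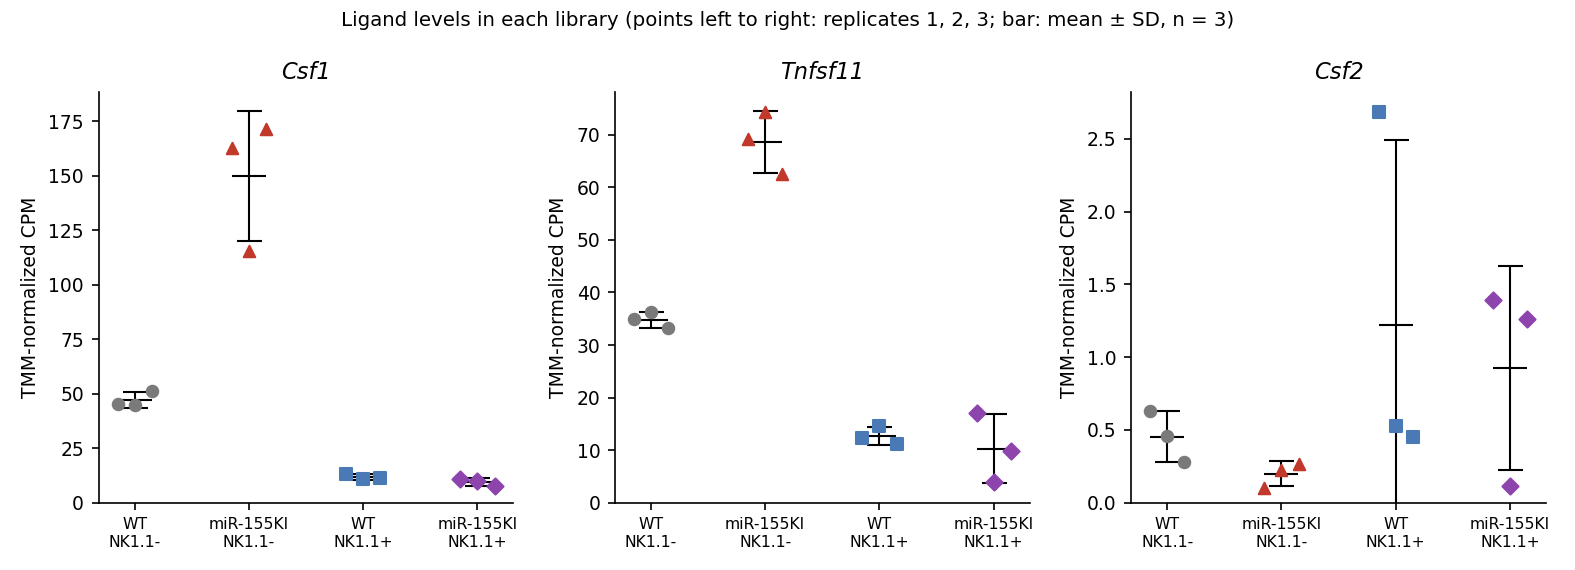
TMM-normalized CPM of *Csf1*, *Tnfsf11* and *Csf2* in each of the 12 libraries by group, with replicates 1 to 3 from left to right and the mean ± SD (n = 3) as black bars, where the lower bar of *Csf2* in WT NK1.1+ cells runs below the axis. The *Csf1* points of miR-155KI NK1.1- cells lie between 116 and 171 CPM and those of all other groups at or below 51.2 CPM, *Tnfsf11* has the same order with smaller gaps, and *Csf2* stays at or below 2.69 CPM.

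The log2 fold change of *Csf1* between miR-155KI and WT was 1.65 (standard error 0.15) in the NK1.1- pool, a 3.14-fold higher level, and -0.32 (standard error 0.33) in the NK1.1+ pool. These values include those it was picked for, and no p is given. By log2 fold change *Csf1* stood at place 102 of the 13304 genes tested in the NK1.1- pool. Between the pools *Csf1* was lower in NK1.1+ cells, with log2 fold changes of -2.03 (standard error 0.16, 4.08-fold lower) in WT and -3.97 (standard error 0.21, 15.7-fold lower) in miR-155KI cells. The genotype effect in the NK1.1- pool exceeded that in the NK1.1+ pool by 1.97 on the log2 scale (standard error 0.25), also without a test because the rule used this difference. With WT replicate 1 as the only WT library, the one whose *Xist* and *Ddx3y* resembled the miR-155KI libraries, the log2 fold change between the genotypes was 1.72 in the NK1.1- pool and -0.49 in the NK1.1+ pool, and that between the WT pools was -1.76. Without miR-155KI NK1.1+ replicate 2, a library that stood apart in several genes below, the *Csf1* value in the NK1.1+ pool was -0.35 and the difference between the pools 2.01.

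*Tnfsf11*, the RANKL gene, was also highest in miR-155KI NK1.1- cells. Those libraries measured 69.1, 74.3 and 62.5 CPM (68.6 ± 5.94, SD, n = 3). WT NK1.1- cells measured 35.0, 36.2 and 33.2 CPM (34.8 ± 1.49, SD, n = 3). The groups did not overlap, and the libraries within each lay close together.

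*Tnfsf11* rose in the NK1.1- pool of miR-155KI mice, where the log2 fold change was 0.96 (standard error 0.13, adjusted p = 0.00104 by edgeR's quasi-likelihood test), a 1.95-fold higher level in 3 of 3 libraries against 3. At this threshold, an adjusted p under 0.05, 1.93% of the 13304 genes tested were higher and 1.50% lower, and 13.2% were higher and 9.93% lower in every miR-155KI library than in every WT library, so a lack of overlap alone is common. With WT replicate 1 as the only WT library the log2 fold change was 0.98 (adjusted p = 0.0236 by edgeR), where the error rests on miR-155KI libraries only and the lone WT library is assumed to vary like them. With all 12 libraries in one fit, in which the NK1.1+ libraries also set the error, the *Tnfsf11* value was again 0.98 but the edgeR adjusted p was 0.238, and the call was lost. The same fit without miR-155KI NK1.1+ replicate 2, an alternative chosen after seeing the data, gave 0.99 for *Tnfsf11* (adjusted p = 0.0128 by edgeR).

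The *Tnfsf11* level of the NK1.1+ pool was lower and did not separate the genotypes. WT NK1.1+ cells measured 12.4, 14.5 and 11.2 CPM (12.7 ± 1.69, SD, n = 3). The miR-155KI NK1.1+ libraries measured 17.0, 4.04 and 9.84 CPM (10.3 ± 6.52, SD, n = 3). The miR-155KI libraries spanned the WT range, with replicate 1 above it and replicates 2 and 3 below it.

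The log2 fold change of *Tnfsf11* in the NK1.1+ pool was -0.32 (standard error 0.47, adjusted p = 0.846 by edgeR). Without miR-155KI NK1.1+ replicate 2 it was 0.06 (adjusted p = 0.958 by edgeR), so its sign rested on 1 library. Few genes passed in this pool, 0.0231% of 12991 higher and 0% lower by edgeR's quasi-likelihood test, with 1539 genes at an unadjusted p under 0.05 and 316 called by DESeq2, while 8.46% were higher and 8.34% lower without overlap. The difference of the genotype effect between the pools was 1.29 for *Tnfsf11* on the log2 scale (standard error 0.46), with an unadjusted p of 0.0144 and an adjusted p of 0.470 by edgeR, and did not pass. In that test, over 14401 genes, 0.0208% were called with a larger effect in the NK1.1- pool and 0.00694% with a smaller one. Without miR-155KI NK1.1+ replicate 1 the difference was 1.82 (adjusted p = 0.0480), without replicate 2 it was 0.90 (adjusted p = 0.280), and with no filter on low counts it was 1.27 (adjusted p = 0.0176), all by edgeR. That the *Tnfsf11* rise differed between the pools was thus called or not depending on the libraries and the filter.

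Between the pools *Tnfsf11* was lower in NK1.1+ cells of both genotypes. In WT cells the log2 fold change of NK1.1+ against NK1.1- was -1.48 (standard error 0.17, adjusted p = 1.2e-04 by edgeR), a 2.80-fold lower level with no overlap. In miR-155KI cells the log2 fold change was -2.74 (standard error 0.41, adjusted p = 0.00223 by edgeR), a 6.69-fold lower level, and it was -2.36 without replicate 2 of the NK1.1+ pool. In WT cells 10.9% of 13555 genes were lower and 9.89% higher in the NK1.1+ pool, and in miR-155KI cells 6.15% of 12942 were lower and 7.92% higher. Without overlap, 18.6% were lower and 20.4% higher in WT, and 17.1% lower and 17.5% higher in miR-155KI cells. With WT replicate 1 as the only WT library, which leaves 1 library in each WT pool and borrows the spread of the miR-155KI groups, the WT value was -1.49 and did not pass (adjusted p = 0.439 by edgeR).

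**Figure D2:**
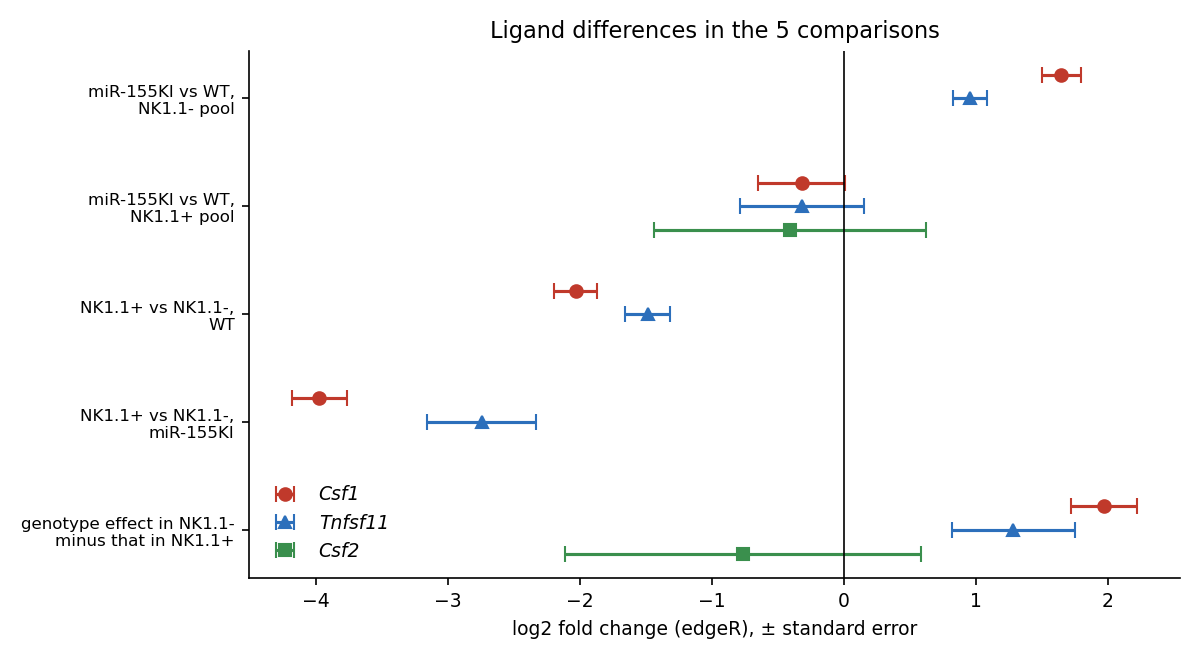
Log2 fold change ± standard error from edgeR of *Csf1*, *Tnfsf11* and *Csf2* in the 5 comparisons, with 0 marked by a line and *Csf2* absent from the 3 comparisons in which it was under the filter on low counts. *Csf1* and *Tnfsf11* lie at 1.65 and 0.96 in the NK1.1- genotype comparison and below 0 in both comparisons between the pools.

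*Csf2*, the GM-CSF gene, was near the limit of detection. WT NK1.1- libraries held 9, 8 and 5 counts and miR-155KI NK1.1- libraries 2, 3 and 5 counts. WT NK1.1+ libraries held 52, 9 and 9 counts and miR-155KI NK1.1+ libraries 21, 2 and 20 counts. WT NK1.1+ replicate 1 and miR-155KI NK1.1+ replicates 1 and 3 stood above the other 9 libraries, which all held fewer than 10 counts.

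As levels, *Csf2* was 0.455 ± 0.175 CPM in WT NK1.1- cells, 0.199 ± 0.0855 CPM in miR-155KI NK1.1- cells, 1.22 ± 1.27 CPM in WT NK1.1+ cells and 0.924 ± 0.702 CPM in miR-155KI NK1.1+ cells (SD, n = 3 each). A count of 0 would allow up to 3 counts, or 0.150 to 0.226 CPM at these depths, counting error only, so the miR-155KI NK1.1- level was at that limit. *Csf2* fell under the low-count filter in 3 comparisons and was not tested there. Between the genotypes of the NK1.1+ pool its log2 fold change was -0.41 (standard error 1.03, adjusted p = 0.922 by edgeR), and it was 0.89 without WT NK1.1+ replicate 1 and 0.10 without miR-155KI NK1.1+ replicate 2. The difference of the genotype effect between the pools was -0.76 (standard error 1.35, adjusted p = 0.941 by edgeR). In the NK1.1- pool every miR-155KI library (0.103 to 0.268 CPM) lay below every WT library (0.279 to 0.628 CPM), on at most 9 counts each, and this was not tested. The nearest libraries, replicate 3 of each genotype, both held 5 counts and were split only by library size. Of the genes tested in this pool 9.93% were lower without overlap. In the NK1.1+ pool no difference of *Csf2* between the genotypes was detectable at this depth.

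Levels of the ligands can be compared with each other only per length of exon. The length used joins all annotated exons, 5281 bases over 7 transcripts for *Csf1*, whose longest transcript has 4176 bases. *Tnfsf11* has 1 transcript of 2236 bases. A shorter length for *Csf1* would raise its values per kb against *Tnfsf11*, so which of them is higher depends on this choice where they lie close. Per kb, *Tnfsf11* was the higher of *Csf1* and *Tnfsf11* in WT NK1.1- cells, at 14.9 to 16.2 CPM per kb against 8.49 to 9.70 CPM per kb. In miR-155KI NK1.1- cells the ranges met, at 27.9 to 33.2 CPM per kb for *Tnfsf11* and 21.9 to 32.5 CPM per kb for *Csf1*. The ratio of *Csf1* to *Tnfsf11* per kb was 0.524 to 0.652 in WT and 0.659 to 1.16 in miR-155KI NK1.1- cells, so the highest WT and the lowest miR-155KI library were almost level. For the NK1.1+ pool it was 0.316 to 0.455 in WT cells and 0.273 to 1.04 in miR-155KI cells, where the value of 1.04 was replicate 2, the library low in *Tnfsf11*. Mean *Csf2* levels were 0.248 to 1.53 CPM per kb, the lowest of the 3 ligands in each group mean.

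**Figure D3:**
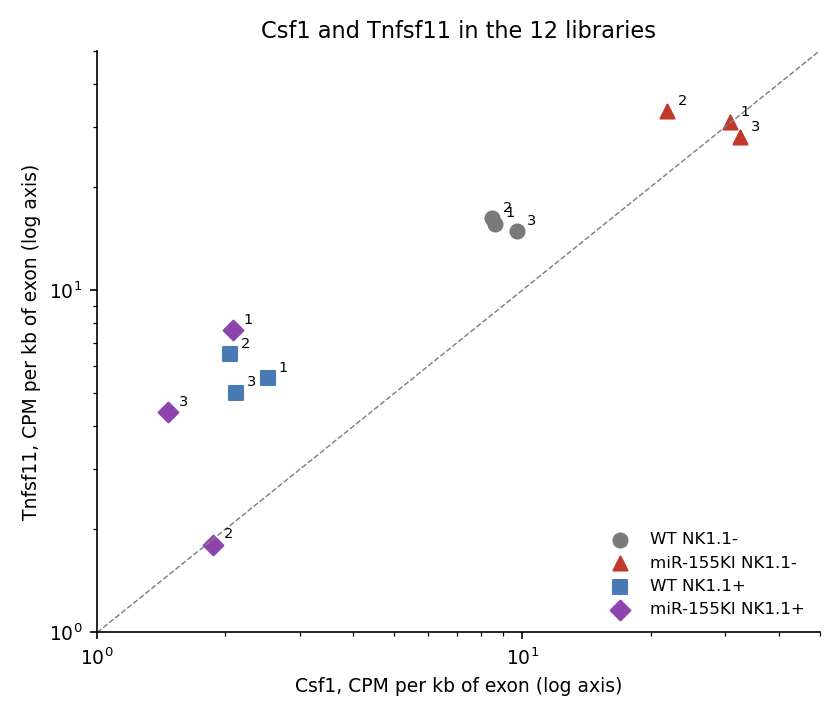
*Tnfsf11* against *Csf1* in CPM per kb of exon on log axes, 1 point per library, numbered by replicate. The dashed line marks equal levels at the joined exon lengths, which for *Csf1* exceed its longest transcript. The miR-155KI NK1.1- libraries lie highest on both axes, the WT NK1.1- libraries next, and miR-155KI NK1.1+ replicate 2 lies apart from its group at 1.87 for *Csf1* and 1.81 for *Tnfsf11*.

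Other RNA differed between the groups beside these ligands, and in sorted bulk samples fewer cells of a type and less RNA per cell cannot be told apart. Within the NK1.1- pool the summed level of 7 *i*NKT2 markers was 2529 to 2641 CPM in WT and 3505 to 3661 CPM in miR-155KI cells. By edgeR 3 of 7 were higher, where 1.93% of all genes tested were higher and 1.50% lower. In mean, *Icos* (743 against 1097 CPM), *Pdcd1* (294 against 582 CPM) and *Il17rb* (215 against 403 CPM) were higher in miR-155KI cells. *Gata3* was level (593 against 594 CPM), and *Zbtb16* was at 462 against 538 CPM with overlapping libraries. The sum of 10 *i*NKT17 markers was 176 to 267 CPM against 50.4 to 74.4 CPM (9 of 10 lower), and that of 9 *i*NKT1 markers 1261 to 1465 CPM against 712 to 895 CPM (7 of 9 lower). The sum of 5 genes of immature stage 0 cells was 664 to 906 CPM against 981 to 1315 CPM, most of it *Lef1* and *Ccr9*. Of these 5 genes *Lef1* and *Egr2* were higher by edgeR, while *Cd24a* (mean 5.50 against 1.65 CPM) and *Sox4* (mean 11.7 against 7.39 CPM) were lower in every miR-155KI library without passing. Between the WT pools, where *Csf1* and *Tnfsf11* were lower in NK1.1+ cells, 9 of 9 *i*NKT1 markers were higher (4795 to 5803 CPM in sum). There 7 of 7 *i*NKT2 markers (1210 to 1377 CPM in sum) and 8 of 10 *i*NKT17 markers (37.5 to 75.4 CPM) were lower. So were 4 of 5 stage 0 genes (227 to 250 CPM in sum). Over all genes tested between these pools 9.89% were higher and 10.9% lower. The part of these shifts in the *Csf1* and *Tnfsf11* values was not tested.

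Markers of other cell types were also measured. In the NK1.1- pool 13 myeloid markers summed to 163 to 306 CPM in WT and 185 to 237 CPM in miR-155KI cells, 6 B cell markers to 105 to 255 CPM against 79.0 to 113 CPM, 6 markers of CD4+CD8+ thymocytes to 4.91 to 41.2 CPM against 5.27 to 28.1 CPM, and 5 genes of the gamma delta TCR to 375 to 605 CPM against 679 to 921 CPM. Of these lists only the last had a member that passed, *Tcrg-C4*, 1 of 4 tested. By edgeR 1.93% of all genes tested there were higher and 1.50% lower. That sum came almost wholly from the 3 gamma chain genes, since *Trdc* of the delta chain was at a mean of 1.104 against 1.00 CPM and *Trdv4* was at 0 in some libraries. The sum of 8 stromal markers was 113 to 120 CPM against 128 to 156 CPM, and *Pecam1* made up 106 to 114 CPM and 126 to 152 CPM of it, and among the others *Krt5*, *Psmb11*, *Pdgfra* and *Col1a2* were at 0 in some libraries. In the NK1.1+ pool the myeloid sum was 293 to 378 CPM in WT and 500 to 907 CPM in miR-155KI cells, most of it *Fcer1g* and *Cst3* in WT cells, with *Itgax* and *Siglech* at 0 in some libraries. The macrophage genes in the list differed by more than the sum, with *C1qa* at a mean of 2.02 against 37.5 CPM, *C1qb* at 2.31 against 46.1 CPM and *Lyz2* at 3.93 against 66.3 CPM. Of 12 myeloid markers tested 11 had a log2 fold change above 0 (median 2.75), and 2 passed, *C1qa* and *C1qc*. Of all 12991 genes tested between the genotypes in this pool, 52.4% had a log2 fold change above 0 (median 0.02). Only 3 of them were called higher and 0 lower by edgeR. The highest myeloid sum was in replicate 2, the library of its group lowest in *Tnfsf11* and *Csf2*, and the thymocyte sum was highest in replicate 1 of the same group, at 168 CPM against 6.08 and 20.5 CPM in the others. Their part in the NK1.1+ values was not tested.

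The receptors of the ligands were mostly low in these cells. *Csf1r*, the M-CSF receptor, measured 1.89 ± 0.787 CPM in WT and 2.70 ± 0.321 CPM in miR-155KI NK1.1- cells (SD, n = 3 each), with no call (log2 fold change 0.50, adjusted p = 0.574 by edgeR). Its NK1.1+ values were 0.465, 1.23 and 1.55 CPM in WT cells and 5.64, 33.1 and 6.18 CPM in miR-155KI cells. Every miR-155KI library lay above every WT library there, as was the case for 8.46% of the 12991 genes tested. The difference did not pass (log2 fold change 3.76, standard error 0.79, adjusted p = 0.201 by edgeR). Within miR-155KI mice *Csf1r* was higher in the NK1.1+ than in the NK1.1- pool (log2 fold change 2.47, standard error 0.68, adjusted p = 0.0397 by edgeR), a call that was lost with limma, with the replicate number as a block, and without any 1 of the NK1.1- libraries or NK1.1+ replicate 2. *Csf1r* is itself one of the myeloid markers above.

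*Csf2ra*, the alpha chain of the GM-CSF receptor, had the highest mean CPM of the receptor genes in each group, though in miR-155KI NK1.1+ replicate 2 *Csf1r* lay above it (33.1 against 23.5 CPM). It was at 24.5 ± 6.52 CPM in WT and 32.3 ± 8.76 CPM in miR-155KI NK1.1- cells and at 19.3 ± 1.93 CPM and 25.2 ± 13.2 CPM in the NK1.1+ groups (SD, n = 3 each). The ranges overlapped in every comparison, and none passed (adjusted p = 0.433 and 0.732 for the genotypes by edgeR). *Csf2rb*, the signaling beta chain shared with the IL-3 and IL-5 receptors, was at 0.150 to 0.751 CPM in 11 libraries and at 8.22 CPM in miR-155KI NK1.1+ replicate 1. *Csf2rb2*, its near copy that serves IL-3, was at 0.103 to 1.05 CPM in 11 libraries and at 5.11 CPM in miR-155KI NK1.1+ replicate 3, and reads of the near copies may have been split between them. *Tnfrsf11a*, which encodes RANK, had 1 to 10 counts in 11 libraries, at most 0.572 CPM, and 171 counts in miR-155KI NK1.1+ replicate 2. *Tnfrsf11b*, the osteoprotegerin gene, had 0 to 4 counts in each library and 0 in all 3 of the miR-155KI NK1.1+ group. A different single library of miR-155KI NK1.1+ cells thus held the high value of *Csf2rb*, *Csf2rb2* and *Tnfrsf11a*.

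**Figure D4:**
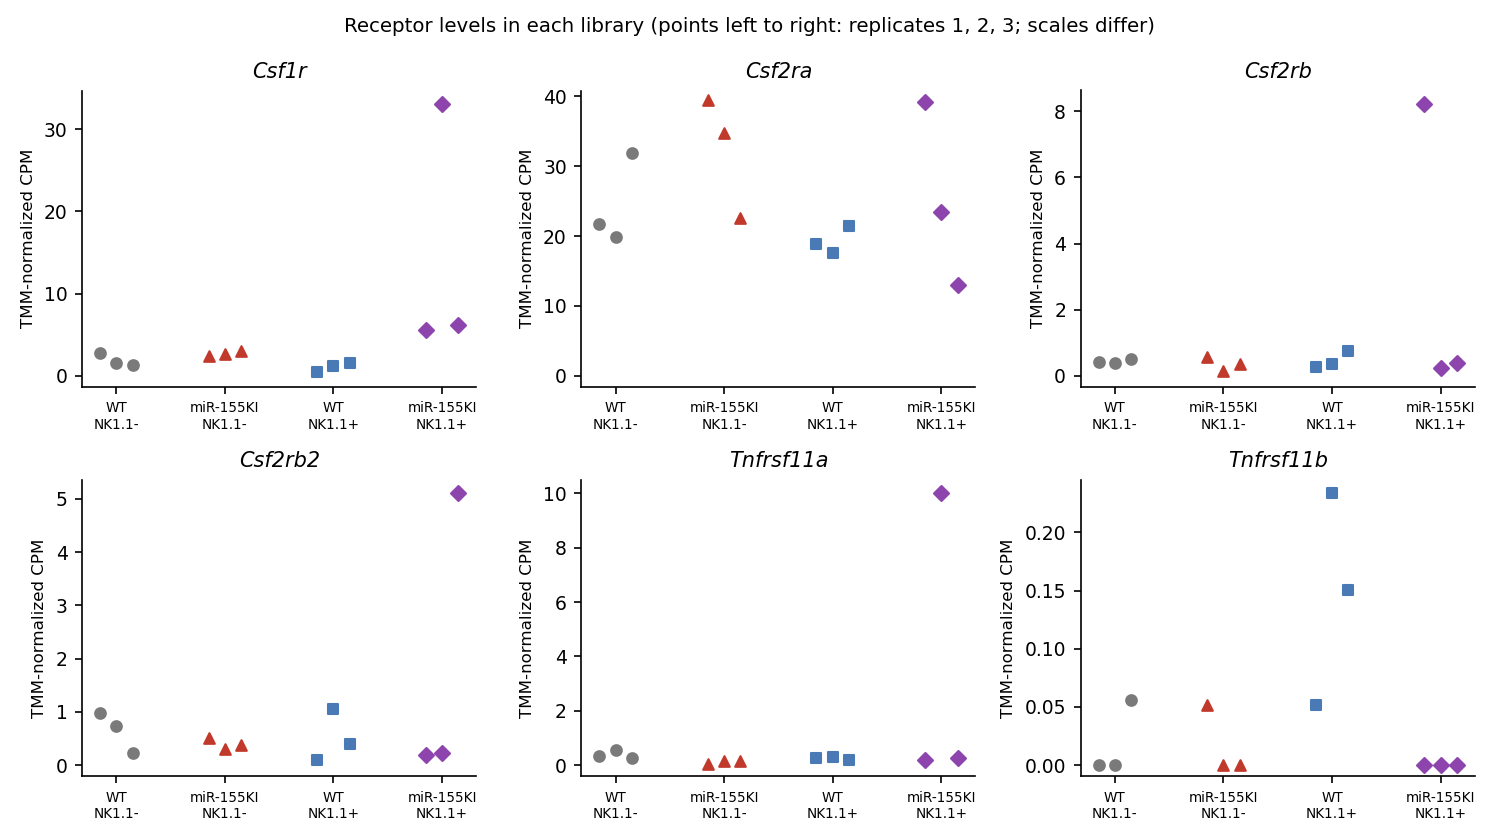
TMM-normalized CPM of the 6 receptor genes in each library by group, with replicates 1 to 3 from left to right and a separate linear scale for each gene. Single miR-155KI NK1.1+ libraries stand at 33.1 CPM for *Csf1r*, 8.22 CPM for *Csf2rb* and 5.11 CPM for *Csf2rb2*, 1 such library stands alone for *Tnfrsf11a*, and the groups overlap for *Csf2ra*.

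Genes of related families were read beside the ligands in the NK1.1- genotype comparison. Of 38 genes tested in 5 lists (receptors, other haematopoietic ligands, other TNF family ligands, chemokines for myeloid cells and regulators of ligand genes), 0 were higher and 5 lower by edgeR, where 1.93% of all genes tested were higher and 1.50% lower. At an unadjusted p under 0.05 there were 19, and DESeq2 called 11 and limma 7, with 2 and 1 haematopoietic ligands among these called higher. Of all genes, 2457 of 13304 had an unadjusted p under 0.05 by edgeR. DESeq2 called 960 of 12631 and limma 456 of 13304. Among the 7 haematopoietic and 10 TNF family ligands tested, 4 lay higher in every miR-155KI than in every WT library without passing by edgeR. *Ltb* did not pass either and lay lower in every miR-155KI library (334 to 466 CPM) than in every WT library (498 to 742 CPM). Without overlap 13.2% of all genes tested were higher and 9.93% lower. *Ltb* and the 4 higher ligands were named after their values were seen. *Lif* was at 5.40 ± 2.35 CPM in WT and 12.3 ± 3.95 CPM in miR-155KI cells (log2 fold change 1.18, adjusted p = 0.0841 by edgeR), *Tnfsf8* at 2.33 ± 0.0855 and 4.39 ± 0.994 CPM (0.90, adjusted p = 0.177), *Il4* at 123 ± 6.53 and 172 ± 26.2 CPM (0.46, adjusted p = 0.0599) and *Osm* at 33.2 ± 4.86 and 43.7 ± 2.43 CPM (0.38, adjusted p = 0.176; SD, n = 3 each). *Ifng*, encoding interferon gamma, fell by 1.38 on the log2 scale (adjusted p = 0.00898) as 1 of 7 haematopoietic ligands tested, and *Fasl*, the Fas ligand gene, fell by 1.06 (adjusted p = 0.00946 by edgeR) as 1 of 10 TNF family ligands tested. *Xcl1*, *Ccl5* and *Cxcl10*, chemokines that attract dendritic and T cells among others, fell by 0.92, 0.91 and 1.27 on the log2 scale (adjusted p = 0.00595, 0.00963 and 0.0286 by edgeR), 3 of 4 chemokines tested. The median log2 fold change was -0.15 for the haematopoietic ligands, 0.13 for the TNF family ligands and -0.99 for the chemokines, beside -0.00 over all genes. With WT replicate 1 as the only WT library, again with the spread of the miR-155KI libraries alone, none of the 5 passed (0 of 7, 0 of 11 and 0 of 5 tested in these lists), and with all 12 libraries in one fit 1 chemokine did. *Ifng*, *Xcl1* and *Ccl5* are also *i*NKT1 markers in the sums above.

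Between the pools of WT mice the ligands divided. *Csf1* and *Tnfsf11* were lower in NK1.1+ cells, as were *Il4*, *Il13* and *Mif* (log2 fold change -1.04, -2.25 and -0.91, adjusted p = 1.6e-04, 0.00129 and 0.00193 by edgeR), which encode type 2 cytokines and a macrophage inhibitory factor. *Il2*, the T cell growth factor, was higher (4.17, adjusted p = 0.00268 by edgeR), and so were *Fasl*, *Tnfsf10*, *Ltb* and *Tnfsf8* of the TNF family (2.47, 1.57, 0.91 and 1.62, adjusted p = 3.1e-05, 8.7e-05, 0.00227 and 0.00434). *Il2* had 19 to 67 counts in the WT NK1.1+ libraries but 1 to 2 in the WT NK1.1- libraries. That is at most 0.140 CPM, under the 0.150 to 0.226 CPM that a count of 0 would allow, so the size of its difference is rough. Of 10 TNF family ligands tested besides *Tnfsf11*, 5 were higher and 1 lower, with a median log2 fold change of 0.60, and of 8 haematopoietic ligands 2 were higher and 5 lower, with a median of -0.91. Over all genes tested 9.89% were higher and 10.9% lower, with a median of 0.01. *Ccl5*, *Xcl1* and *Ccl4* were higher by 2.84, 2.70 and 2.68 (adjusted p = 4.5e-06, 4.5e-06 and 4.0e-04 by edgeR), 3 of 6 chemokines tested, so *Tnfsf11* differed in sign from 5 of the 6 members of its family that passed. With WT replicate 1 as the only WT library, so 1 library against 1, the log2 fold change was -1.76 for *Csf1* and -1.49 for *Tnfsf11*. Calls in the other lists are not given for that fit, since its spread came from the miR-155KI groups. In miR-155KI mice 4 of 11 TNF family ligands were higher and 0 lower by edgeR, with 5 at an unadjusted p under 0.05 and 4 called by DESeq2 and 5 by limma, and 2 of 8 haematopoietic ligands were higher and 5 lower. Over all 12942 genes tested between the miR-155KI pools 7.92% were higher and 6.15% lower. An unadjusted p under 0.05 was reached by 3543 of them by edgeR, while DESeq2 called 2627 of 14218 genes and limma 1912 of 12942.

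A list of 15 transcription factor genes of the NFAT, NF-kB, AP-1, RUNX and other families was read in the same way, with no measure of binding. In NK1.1- cells 0 of 15 passed between the genotypes by edgeR, with 6 at an unadjusted p under 0.05, 3 called by DESeq2 and 1 by limma, and 13 of 15 had a log2 fold change below 0 (median -0.29). There 1.93% of all genes tested were higher and 1.50% lower by edgeR, and 49.9% had a log2 fold change above 0. An unadjusted p under 0.05 was reached by 2457 of 13304 genes, while DESeq2 called 960 of 12631 and limma 456 of 13304. Between the pools of WT mice 5 of 15 were higher and 1 lower in NK1.1+ cells, where 9.89% of all genes tested were higher and 10.9% lower. With the replicate number as a block 9 of 15 were higher and 2 lower, beside 1999 higher and 2054 lower of all 13555 genes. *Nfatc2*, an NFAT factor, was higher by 0.72 (adjusted p = 0.00392), and *Fos* and *Junb*, which form AP-1, by 1.57 and 1.17 (adjusted p = 0.00518 and 0.00525 by edgeR). *Runx1*, a RUNX factor, was lower by a log2 fold change of -0.86 (adjusted p = 8.4e-04 by edgeR). Among NK1.1+ cells 0 of the 40 tested genes of all 5 lists passed between the genotypes by edgeR, with 8 at an unadjusted p under 0.05, 4 called by DESeq2 and 0 by limma. Over all genes tested there, only 0.0231% were higher and 0% lower by edgeR. An unadjusted p under 0.05 was reached by 1539 of 12991 genes, while DESeq2 called 316 of 14133 and limma 4 of 12991.

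The genes whose pattern was most like that of *Csf1* over the 12 libraries, by Pearson correlation of log2 CPM among 9413 genes with a mean level of 5 CPM or more, were *Rps6ka2* (r = 0.983), *Parm1* (0.980), *Scn8a* (0.979), *Cd247* (0.975) and *Ptprb* (0.974). *Rps6ka2*, an RSK kinase gene, was at 15.8 ± 1.16 CPM in WT and 38.7 ± 8.41 CPM in miR-155KI NK1.1- cells and at 3.56 ± 1.07 and 2.95 ± 0.488 CPM in the NK1.1+ groups (SD, n = 3 each). By Spearman correlation *Parm1* stayed among the 5 nearest, at place 4, and the other 4 fell to places 50 to 139. Those nearest to *Tnfsf11* were *Fmnl3* (r = 0.987), *Sardh* (0.984), *Etv6* (0.978), *Acot11* (0.974) and *Trpm6* (0.971). *Fmnl3*, a formin gene, was at 38.6 ± 3.76 CPM and 66.8 ± 6.78 CPM in WT and miR-155KI NK1.1- cells and at 17.6 ± 0.857 CPM and 16.7 ± 11.2 CPM in the NK1.1+ groups (SD, n = 3 each). *Tnfsf11* stood at place 99 among the genes nearest to *Csf1*, and *Csf1* at place 57 among those nearest to *Tnfsf11*. Those nearest to *Csf2* were *Ifit2* (r = 0.918), *Wwp1* (0.893), *Cwc27* (0.873), *Idi1* (0.868) and *Il15ra* (0.862), with the *Csf2* values resting on 2 to 52 counts. All these correlations mix group differences with the spread within groups over the same libraries, and they are descriptions without a test.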

How the data were processed

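Sorted thymic *i*NKT cells gave 12 RNA-seq libraries, which were grouped by the sample titles. Per the labels, reads were demultiplexed with bcl2fastq 2.17.1.14 and placed on GRCm38 (mm10). The aligner and the counting program are not given in the sources used here, and the labels name a SMART-Seq v4 kit where the study's methods name a TruSeq kit. The authors deposited raw counts per gene name, used for every test but limma, and a table called CPM, a signal in which the authors multiplied each count by 1 factor per library. That table was used only for limma.

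Genes were tested with edgeR 4.0.16 (R 4.3.3, quasi-likelihood, TMM, a minimum count of 10 and a minimum total of 15) in the 6 libraries of each comparison, or all 12 for the difference of the genotype effect between the pools, with Benjamini-Hochberg adjusted p under 0.05 as a call. The tests were checked on artificial counts with known fold changes. Alternatives were DESeq2 1.42.0, limma 3.58.1 on log2(deposited CPM + 1), RLE scaling, no filter on low counts, all libraries in one fit, WT replicate 1 as the only WT library, the replicate number as a block, and each library left out in turn. Deviations of same-numbered libraries from their group means correlated at 0.315, 0.257 and 0.119 between the WT pools, so the numbers were taken to pair those pools. The main tests did not use this pairing, which entered only in the alternative with a block. For the genotypes and the miR-155KI pools not every correlation was over 0.1.

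The members and gene lists were chosen with earlier results of these data known. The text names the 3 ligands, their receptors, up to 4 genes with the smallest p among those that passed in each other list, and the 5 nearest genes by Pearson correlation of log2 CPM (prior count 2) without predicted genes. Marker lists are given as counts and sums. Gene models were from GENCODE M21, and promoter and miRNA sequences from RefSeq GRCm38.p6.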

Additional observations from a re-analysis of the deposited data

How the results depend on the processing

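Few genes passed for genotype in the NK1.1+ pool by edgeR, and *Csf2* was too low to test in 3 comparisons. *Csf1* and *Tnfsf11* kept their direction in the NK1.1- pool and between the pools under every alternative. Genes called moved most. In the NK1.1- genotype comparison there were 457 by edgeR, 960 with DESeq2, 1048 without a filter, 139 with all 12 libraries in one fit, 216 in that fit without miR-155KI NK1.1+ replicate 2, 157 with WT replicate 1 as the only WT library and 186 to 917 with 1 library left out. In the NK1.1+ genotype comparison 3 genes became 316, 282 and 60 with DESeq2, no filter and all 12 libraries, 1 with WT replicate 1 alone and 1 to 125 with 1 library left out, where 125 was without WT replicate 1. Between the WT pools 2819 became 200 with WT replicate 1 alone and 1832 to 3264 with 1 library left out, and between the miR-155KI pools 1821 became 788 to 2542. For the difference of the genotype effect 4 became 139 with DESeq2, 7 with RLE scaling, 162 without a filter, 1 with WT replicate 1 alone and 3 to 46 with 1 library left out.

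*Tnfsf11* lost its call in the NK1.1- genotype comparison with all 12 libraries in one fit (0.98) and between the WT pools with WT replicate 1 alone (-1.49). Its difference of the genotype effect was called without a filter (1.27) and ranged from 0.90 to 1.82 with 1 library left out. *Csf1* moved to -1.76 between the WT pools and 2.22 for the difference of the genotype effect with WT replicate 1 alone. The cause was not tested.

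With the replicate number as a block the genes called were 737 in the NK1.1- and 7 in the NK1.1+ genotype comparison and 23 for the difference of the genotype effect, and 4053 against 2819 between the WT pools, the comparison whose numbers pair. For the difference of the genotype effect the block was the number within each genotype. In the genotype comparisons it joined libraries of different genotypes, so of different mice, and is not a pairing. The block changed no call of *Tnfsf11*, which was at 0.96 (NK1.1- genotype comparison) and -1.49 (WT pools).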
